A study of Mus musculus with 10 samples.

Results

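The proteolipid and collapsin response genes comprise Gpm6a and Gpm6b, which encode the membrane glycoproteins M6A and M6B, and Crmp1, Dpysl2, Dpysl3, Dpysl4 and Dpysl5, which encode the collapsin response mediator proteins (CRMPs). They were found by their gene symbols among 23360 genes of an Affymetrix MoGene-2_0-st array, with the brightest transcript cluster (the probe set for one transcript locus) standing for each symbol, and are 7 of these genes. Genes with a mean log2 intensity under 4.74 (intensity 26.7) in the tumour-derived lines were left out of the test, which kept 16352 genes and all 7 members. Gpm6a was chosen by its measured log2 differences between the groups, which were already known, so its values below are a description without a test. The other 6 were taken up as relatives of it, or of one another, by name.

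The samples were lines of B16OVA, a C57BL/6 mouse melanoma expressing ovalbumin (OVA) as a model antigen, with 1 array per line. IMM lines 1, 2 and 8 came from tumours in OVA-immunized wild-type mice, GKO-IMM lines 1, 2 and 3 from tumours in OVA-immunized mice lacking interferon-gamma (IFN-γ), and NIMM lines 1, 3 and 4 from tumours in naive wild-type mice. The parent line had 1 array and entered no test. When injected again into OVA-immunized mice, the IMM lines grew progressively and the GKO-IMM and NIMM lines did not. The question is what distinguishes lines that escaped OVA-specific immunity. Naive hosts lacking IFN-γ gave no line, so between GKO-IMM and NIMM lines the effects of immunization and of the missing cytokine cannot be told apart. The labels do not say whether the lines are clones, and p-values measure only the spread between these lines.

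M6A and M6B are proteolipids that span the membrane several times. M6A is known from neurons, where it sits at growth cones and promotes filopodia and neurite outgrowth. CRMPs are cytosolic phosphoproteins related in sequence to dihydropyrimidinase. They bind tubulin, carry the growth-cone collapse signal of semaphorin 3A from its neuropilin and plexin receptors, and are switched off tubulin by the kinases CDK5 and GSK3. Melanocytes, like peripheral glia, arise from the neural crest.

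Promoter windows of 4 members, Gpm6a, Gpm6b, Dpysl5 and Crmp1, were taken from a RefSeq table of mouse build GRCm38.p6. Those of Gpm6a and Crmp1 are shown because the levels of these genes went together most closely of the 21 pairs of members, as described below. Each window holds the 250 bases before an annotated start of transcription, read 5′ to 3′ on the + strand. The windows lie at chr8:54779184-54779433 and chr8:54954478-54954727 for Gpm6a and at chr5:37241808-37242057 and chr5:37245514-37245763 for Crmp1. Capitals mark matches to the motifs searched.
Gpm6a start 1: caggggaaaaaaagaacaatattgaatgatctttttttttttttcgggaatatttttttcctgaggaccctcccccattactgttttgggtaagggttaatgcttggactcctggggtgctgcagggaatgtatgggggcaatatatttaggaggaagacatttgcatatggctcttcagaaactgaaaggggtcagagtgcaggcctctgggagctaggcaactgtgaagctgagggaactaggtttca
Gpm6a start 2: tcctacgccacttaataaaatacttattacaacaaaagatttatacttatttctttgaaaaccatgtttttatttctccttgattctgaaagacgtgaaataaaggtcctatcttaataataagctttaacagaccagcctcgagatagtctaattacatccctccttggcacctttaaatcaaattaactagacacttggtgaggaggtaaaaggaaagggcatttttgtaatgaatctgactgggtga
Crmp1 start 1: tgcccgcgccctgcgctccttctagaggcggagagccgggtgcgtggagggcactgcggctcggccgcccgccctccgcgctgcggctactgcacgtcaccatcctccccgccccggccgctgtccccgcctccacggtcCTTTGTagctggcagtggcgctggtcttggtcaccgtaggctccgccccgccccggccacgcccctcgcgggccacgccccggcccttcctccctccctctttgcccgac
Crmp1 start 2: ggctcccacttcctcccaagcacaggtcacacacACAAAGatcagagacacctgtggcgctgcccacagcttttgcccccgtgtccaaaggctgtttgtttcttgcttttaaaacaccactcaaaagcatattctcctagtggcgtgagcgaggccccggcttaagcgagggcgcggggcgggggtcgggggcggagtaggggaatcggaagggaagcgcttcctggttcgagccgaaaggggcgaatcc

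Both strands were searched for 5 motifs, whose shares among all 32851 windows of that length give the background. The E-box CACGTG occurs in 6.02% of windows, the M-box CATGTG of the melanocyte factor MITF in 12.3%, the SOX motif ACAAAG in 16.5%, the AP-1 motif TGANTCA in 6.75% and the cyclic AMP motif TGACGTCA in 1.55%. Neither Gpm6a window held a match to any of them. Both Crmp1 windows held a SOX match and no other. The SOX match was not particular to Crmp1, since the windows of Gpm6b and Dpysl5, not shown, held one too, that of Gpm6b beside a cyclic AMP match. The Gpm6a windows had 44.4% and 33.6% G or C with 1 and 3 CpG sites, and the Crmp1 windows 75.6% and 59.6% with 30 and 16 CpG sites, where the median window had 52.4% and 6. A match describes letters and is not a measured binding site.

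Median intensities lay between 31.9 and 32.5 on the 10 arrays, and log2 intensities of any pair of arrays correlated across genes at 0.993 to 0.998. All 11 melanocyte markers passed the filter, and their summed intensity was 30991 to 34461 in IMM, 31426 to 32326 in GKO-IMM and 31021 to 32476 in NIMM lines and 31969 in the parent. The brightest markers weigh most in this sum, and single markers differed. Oca2 was at -0.59 between IMM and NIMM and -1.02 between IMM and GKO-IMM lines, and Gpr143 at 0.14 and 0.39. Of the 11 markers 0 passed in any comparison by limma. Leukocyte markers summed to 273 to 284 in the 9 lines, with Ptprc (CD45) between 20.3 and 22.2 on all arrays, under the filter. NIMM 4 stood apart from the other NIMM lines. Its log2 differences from NIMM 1 and NIMM 3 had an SD of 0.229 and 0.221 across genes, against 0.125 between NIMM 1 and NIMM 3 and at most 0.184 within the other groups. The members' differences from NIMM lines are given with and without it.

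Gpm6a was brighter in IMM lines than in all other lines, and dimmest in GKO-IMM lines. Its intensity was 152, 167 and 117 in IMM lines 1, 2 and 8, against 70.4, 61.1 and 64.9 in GKO-IMM lines 1, 2 and 3 and 86.1, 89.5 and 87.5 in NIMM lines 1, 3 and 4. The parent stood at 87.5. No 2 of the 3 groups overlapped, and IMM 8 was the lowest of the IMM lines. The means were 145 ± 25.4 in IMM, 65.5 ± 4.69 in GKO-IMM and 87.7 ± 1.75 in NIMM lines (SD, n = 3 lines each), so the spread was widest in the group with the highest level. In log2 units the IMM lines were above NIMM by 0.71 ± 0.11 (SE; 1.64-fold) and above GKO-IMM by 1.14 ± 0.11 (2.20-fold), and the GKO-IMM lines differed from NIMM by -0.42 ± 0.11. These 3 differences share lines and are not independent of each other. Leaving out each line in turn gave 0.61 to 0.86, 1.03 to 1.28 and -0.48 to -0.38 for them, and without NIMM 4 they were 0.71, 1.14 and -0.43. In these cultured lines, fewer cells with the transcript and less of it per cell cannot be told apart. Gpm6a lies on chromosome 8 (transcript cluster 17501191, 54779434 to 55060878 in GRCm38.p6).

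**Figure D1:**
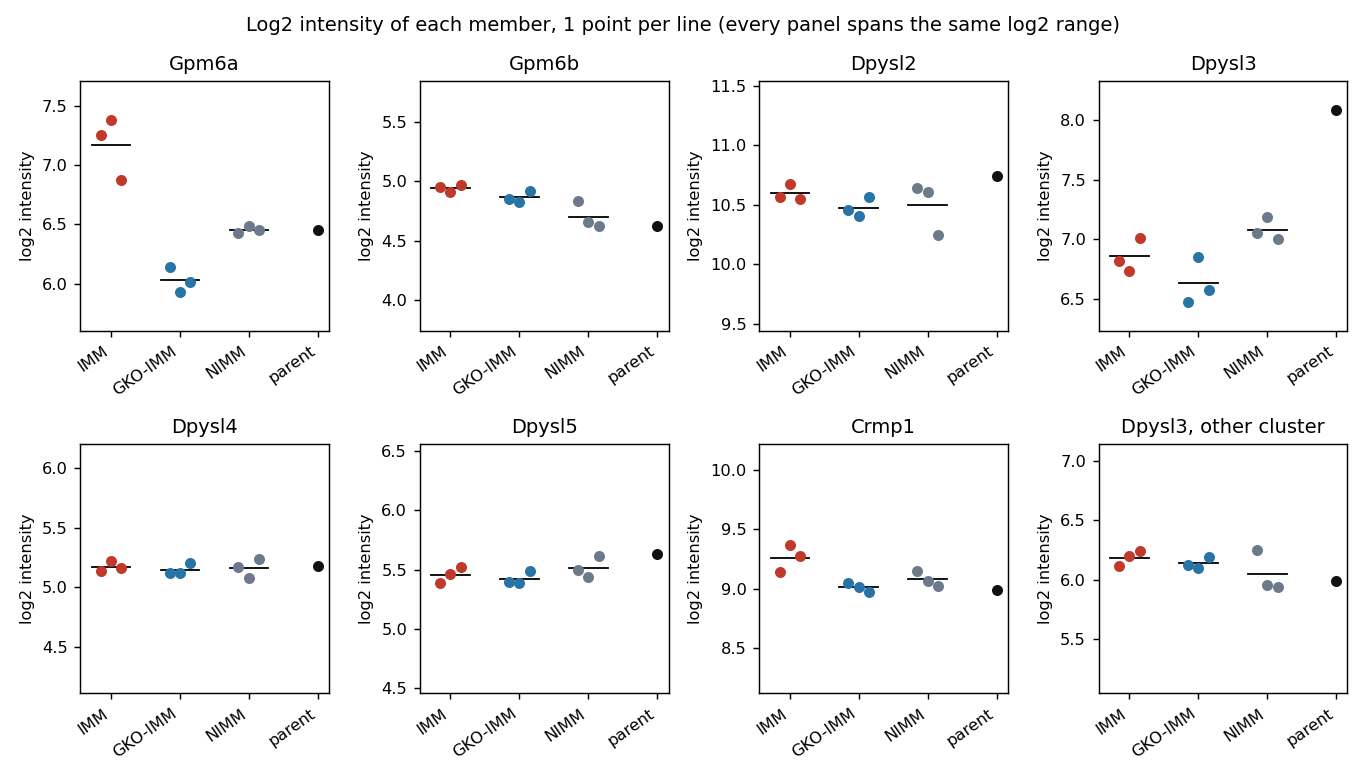
Log2 intensity of each member in each line, with 1 point per array, group means as bars and the same log2 span in every panel, for IMM, GKO-IMM and NIMM lines and the parent. Gpm6a separates the 3 groups, with IMM lines at an intensity of 117 to 167, GKO-IMM lines at 61.1 to 70.4 and NIMM lines at 86.1 to 89.5. On its brighter transcript cluster Dpysl3 stands below the parent's 273 in all 9 lines.

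The Gpm6a level of the parent lay inside the range of the NIMM lines, as it did for 48.4% of all genes tested. The mean of the NIMM lines differed from the parent by 0.0026 in log2 units, that of the IMM lines by 0.71 and that of the GKO-IMM lines by -0.42. Relative to the parent's 1 array, IMM lines were thus higher and GKO-IMM lines lower, by amounts that have no replicate check on the parent's side. Across the 9 lines the Gpm6a level spanned 1.45 log2 units, and 99.6% of genes tested spanned less. Gpm6a was chosen by its differences between these lines, so nothing is read from this rank.

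Gpm6b, the other M6 gene, was dim. Its mean log2 intensity was 4.84, just above the filter, and its intensity was 31.0, 30.1 and 31.3 in IMM lines, against 28.9, 28.4 and 30.3 in GKO-IMM and 28.5, 25.3 and 24.6 in NIMM lines. All IMM lines were above all NIMM lines, while IMM and GKO-IMM lines overlapped. IMM and NIMM lines differed by 0.24 ± 0.07 in log2 units, which did not pass the limma test (adjusted p = 0.175), and without NIMM 4 by 0.20 ± 0.07 (adjusted p = 0.245). At this dim level the size depended on the offset, being 0.09 with 48 added and 0.52 with 15 subtracted before log2 (adjusted p = 0.262 and 0.113). The difference was 0.08 ± 0.07 from GKO-IMM (adjusted p = 0.611) and 0.16 ± 0.07 between GKO-IMM and NIMM (adjusted p = 0.316), the last being 0.12 ± 0.07 without NIMM 4 (adjusted p = 0.334). Gpm6b lies on the X chromosome (166238943 to 166389033).

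Crmp1 encodes CRMP1, one of the CRMPs that act in semaphorin 3A signalling. It had an intensity of 565.5, 660 and 620 in IMM lines, against 529, 516 and 503 in GKO-IMM lines and 569, 534 and 519 in NIMM lines, with 507 in the parent. All IMM lines were above all GKO-IMM lines, and IMM 1 was below NIMM 1. The IMM lines differed from GKO-IMM by 0.25 ± 0.07 in log2 units, which did not pass the limma test (adjusted p = 0.104), from NIMM by 0.18 ± 0.07 (adjusted p = 0.282), and from the mean of both by 0.22 ± 0.06 (adjusted p = 0.125). The first of these passed with array weights (adjusted p = 0.0438) and without NIMM 4 (0.0455), a line that enters it only through the shared spread. Over its alternatives the adjusted p lay between 0.0438 and 0.288. Between GKO-IMM and NIMM lines the difference was -0.07 ± 0.07 (adjusted p = 0.702). Without NIMM 4 the differences from NIMM were 0.15 ± 0.08 for IMM (adjusted p = 0.388) and -0.10 ± 0.08 for GKO-IMM lines (adjusted p = 0.486). Crmp1 lies on chromosome 5 (37242058 to 37292163).

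Dpysl2 encodes CRMP2, which carries tubulin dimers in growing axons. Its intensity was 1516, 1635 and 1494 in IMM lines, against 1406, 1354 and 1515 in GKO-IMM and 1596, 1561 and 1212 in NIMM lines, with 1708 in the parent. All 3 groups overlapped, and NIMM 4 was the lowest line. The differences were 0.10 ± 0.10 for IMM from NIMM (adjusted p = 0.683), 0.12 ± 0.10 for IMM from GKO-IMM (adjusted p = 0.585) and -0.02 ± 0.10 for GKO-IMM from NIMM (adjusted p = 0.944, limma). Without NIMM 4 the first turned to -0.03 ± 0.07 (adjusted p = 0.889) and the last became -0.15 ± 0.07 (adjusted p = 0.238). Dpysl2 lies on chromosome 14 (66802864 to 66911041).

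Dpysl3 encodes CRMP4, which in other cells has been linked to the actin as well as the tubulin cytoskeleton. Its intensity was 113, 107 and 129 in IMM lines, against 88.7, 116 and 95.4 in GKO-IMM lines and 133, 145 and 128 in NIMM lines, with 273 in the parent. The GKO-IMM lines lay below all NIMM lines, and the IMM lines overlapped both groups. GKO-IMM and NIMM lines differed by -0.45 ± 0.10 in log2 units, which did not pass the limma test (adjusted p = 0.126). It passed with array weights (adjusted p = 0.0263) and without NIMM 4 (-0.48 ± 0.11, adjusted p = 0.0267), and the adjusted p lay between 0.0201 and 0.375 over the alternatives. The IMM lines differed from NIMM by -0.22 ± 0.10 (adjusted p = 0.363; -0.26 ± 0.11 without NIMM 4, adjusted p = 0.33) and from GKO-IMM by 0.22 ± 0.10 (adjusted p = 0.301), so that against the mean of both the difference was -0.00058 ± 0.09 (adjusted p = 0.998).

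A further transcript cluster of Dpysl3 (17548074) gave another pattern from that of the brighter one (17354101). It had an intensity of 69.3, 73.3 and 75.7 in IMM lines, against 69.6, 68.5 and 73.0 in GKO-IMM and 76.2, 62.2 and 61.1 in NIMM lines, with 63.3 in the parent. The groups overlapped, and the parent was inside the NIMM range. On this cluster GKO-IMM and NIMM lines differed by 0.09 ± 0.08 (adjusted p = 0.689, limma over all transcript clusters), and the log2 levels of the clusters had a Pearson r of -0.47 over the 10 arrays. Averaging both gave -0.18 between GKO-IMM and NIMM lines (adjusted p = 0.317). What is said of Dpysl3 therefore holds for one transcript cluster only.

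Dpysl4 and Dpysl5 encode CRMP3 and CRMP5, and the groups overlapped for both genes in every comparison. The intensity of Dpysl4 was 35.1, 37.3 and 35.7 in IMM, against 34.7, 34.8 and 36.7 in GKO-IMM and 36.1, 33.7 and 37.7 in NIMM lines, and the parent at 36.3 lay among them. Its differences were 0.01 ± 0.06 for IMM from NIMM, 0.02 ± 0.06 for IMM from GKO-IMM and -0.02 ± 0.06 for GKO-IMM from NIMM (adjusted p = 0.965, 0.891 and 0.934 by limma). Without NIMM 4 the first was 0.05 ± 0.07 (adjusted p = 0.79) and the last turned to 0.02 ± 0.07 (adjusted p = 0.888). Across the 9 lines it spanned 0.16 log2 units, and 5.69% of genes tested spanned less. Dpysl4 lies on chromosome 7 (139085981 to 139101795), which held 27 of the 70 genes called between IMM and NIMM lines and 1309 of the genes tested.

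The intensity of Dpysl5 was 41.7, 44.1 and 45.8 in IMM lines, against 42.0, 41.8 and 44.8 in GKO-IMM and 45.0, 43.4 and 48.8 in NIMM lines, with 49.6 in the parent. The groups overlapped, with NIMM 4 the highest of the 9 lines. Its differences were -0.06 ± 0.07 for IMM from NIMM, 0.03 ± 0.07 for IMM from GKO-IMM and -0.09 ± 0.07 for GKO-IMM from NIMM (adjusted p = 0.725, 0.847 and 0.558 by limma). Without NIMM 4 the first was -0.01 ± 0.07 (adjusted p = 0.962) and the last -0.04 ± 0.07 (adjusted p = 0.745). Dpysl5 lies on chromosome 5 (30711564 to 30799369).

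**Figure D2:**
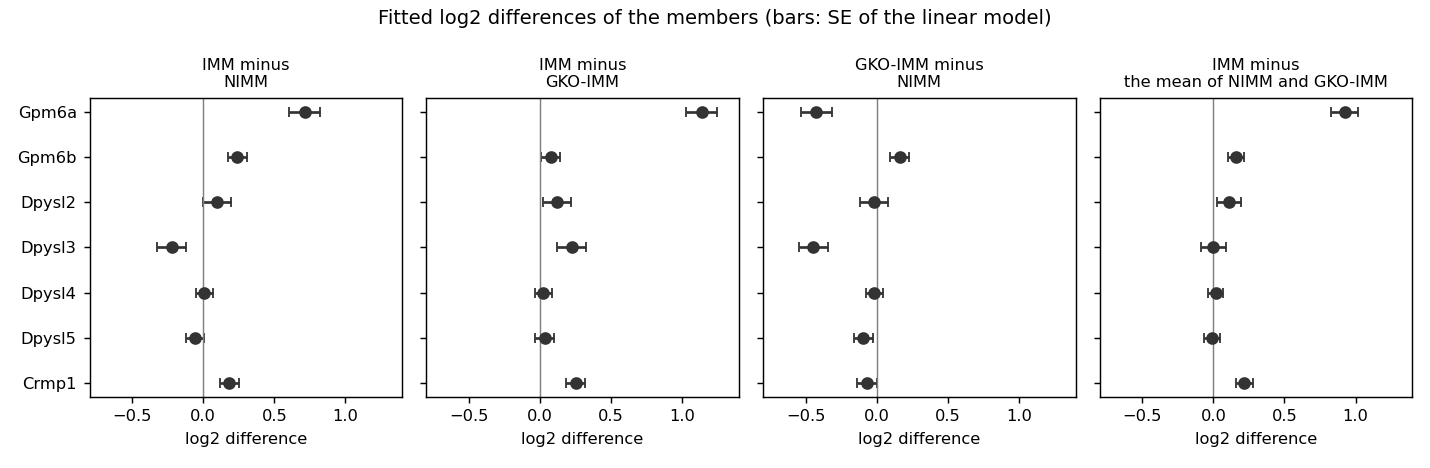
Difference of log2 intensity (points) with its standard error (bars) for each member in the 4 comparisons, from the fit of all 9 lines, with 3 lines per group. Gpm6a stands at 0.71 and 1.14 for IMM against NIMM and against GKO-IMM, and the other 6 members lie between -0.45 and 0.25.

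Counted over the 7 members, 1 passed between IMM and NIMM lines, against 0.428% of all genes tested, and 1 passed between IMM and GKO-IMM lines, against 1.17%. Between GKO-IMM and NIMM lines 0 passed by limma, against 0.122%, with 3 members under an unadjusted p of 0.05, against 13.9% of genes. Between IMM lines and the mean of the others 1 passed, against 0.807%, and for 1 the IMM lines lay on one side of all 6 others, against 6.79%. Each of these calls is Gpm6a, whose difference chose it, so nothing is read from them. Of the 6 others, 0 passed in any comparison. The groups did not overlap for 2 members in each pairwise comparison, against 18.6%, 25.8% and 19.5% of genes. These were Gpm6a and Gpm6b between IMM and NIMM, Gpm6a and Crmp1 between IMM and GKO-IMM, and Gpm6a and Dpysl3 between GKO-IMM and NIMM. The median difference over the members was 0.10, 0.12 and -0.07, against 0.02, 0.01 and 0.01 over all genes tested. All 7 members were above 0 for IMM against GKO-IMM, where 54.2% of genes were. Gpm6a, chosen by its differences, is part of the non-overlap counts, the medians and these 7, so no shift of the family is read from them. In that comparison Gpm6b, Dpysl4 and Dpysl5 stood at just 0.08 ± 0.07, 0.02 ± 0.06 and 0.03 ± 0.07 (SE).

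Among the 21 pairs of members, Gpm6a and Crmp1 had the highest Pearson r of log2 intensity, 0.81 over the 10 arrays and 0.84 over the 9 lines without the parent. The next over the 10 arrays were Dpysl3 and Dpysl5 at 0.68 and Dpysl4 and Dpysl5 at 0.66, and the lowest was -0.65 for Gpm6b and Dpysl3. Dpysl3 enters by its brighter transcript cluster only, on which the parent, at 273, was above all 9 lines. An r without the parent is given for Gpm6a and Crmp1 alone. All these r values are descriptions over few arrays whose lines fall into groups. Gpm6a and Gpm6b had an r of 0.33.

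Over the 14071 genes with a proper symbol, the levels of Cp, the ferroxidase ceruloplasmin, were most like those of Gpm6a, with an r of 0.96 over the 10 arrays. Cp had an intensity of 652, 673 and 503 in IMM lines, against 297, 271 and 218 in GKO-IMM and 399, 356 and 427 in NIMM lines. It thus held the same order of groups as Gpm6a, and IMM 8 was again the lowest IMM line. Such likeness follows from picking the gene by its r, and nothing further is read from it. Soga3 (0.95), the corepressor gene Tle5 (0.94), the peroxisomal carnitine transferase gene Crot (0.94) and Kctd7 (0.93) followed. The lowest values were those of Rnf121 (-0.95), Abraxas2 (-0.95) and the phosphodiesterase gene Pde11a (-0.94). In all, 28 genes had an r above 0.9 or below -0.9 with Gpm6a.

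**Figure D3:**
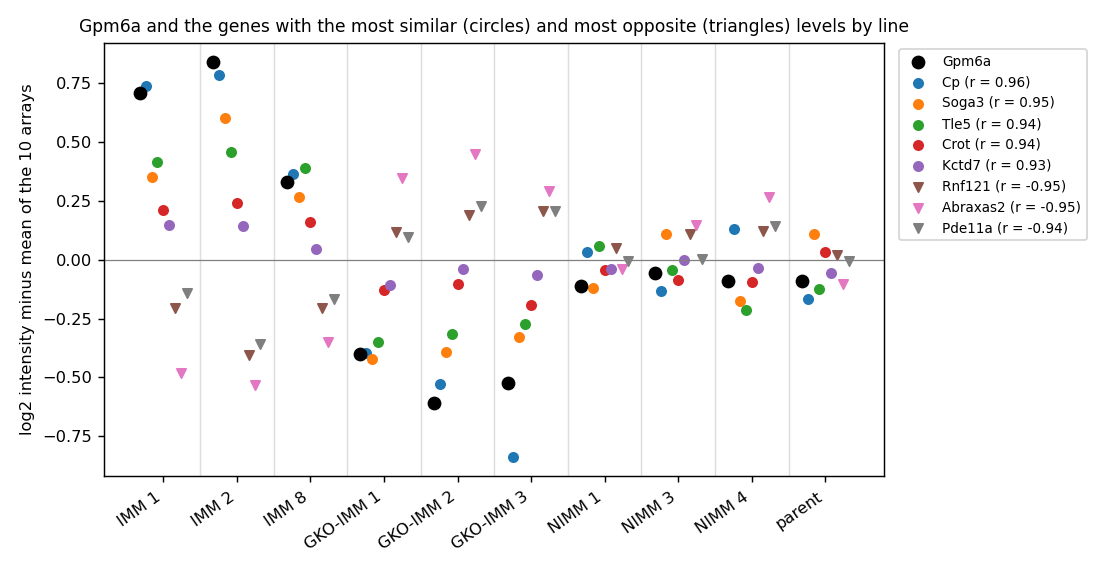
Log2 intensity minus each gene's mean over the 10 arrays, by line, for Gpm6a (black) and the genes whose levels were most like it (circles, Pearson r 0.93 to 0.96 over 10 arrays) or most opposite to it (triangles, -0.95 to -0.94). The similar genes lie highest in the IMM lines and the opposite ones lowest there, which follows from picking them by their r with Gpm6a.

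For Crmp1 the most similar genes were Arhgap45 (0.96), the growth factor receptor gene Pdgfra (0.94) and Psg19 (0.94). For Gpm6b they were the G-protein regulator gene Rgs10 (0.96), the phosphodiesterase gene Pde4c (0.96) and Lyzl4 (0.95), and for Dpysl2 Slc35a4 (0.98), Pml (0.97) and the Golgi GTPase gene Rab1b (0.96). Dpysl2 had 122 genes past 0.9 in size, the most of the 7 members. Dpysl3 was most like Dlx6os2, Faah and Synpo, at 0.96, 0.94 and 0.94, which became 0.84, 0.80 and 0.82 without the parent. Dpysl4 was most like Fam53a (0.93), Dhrs11 (0.93) and Golga7b (0.89), and Dpysl5 like Cela1, Ndufaf8 and Nat8f1 (each 0.88), with 3 genes past 0.9 each.

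None of the 6 tested genes nearest to Gpm6a on chromosome 8 passed in any comparison. Genes that were not tested were passed over, so closer genes may lie between. Before it lie Asb5, Spata4 and Wdr17, the closest 52.5 kb away, and after it Fbxo8, Hand2 and Scrg1, the closest 1490 kb away. Hand2, a heart and neural crest transcription factor gene, had an intensity of 40.8, 40.1 and 40.7 in IMM lines, against 38.9, 39.5 and 36.7 in GKO-IMM and 32.2, 34.6 and 32.9 in NIMM lines. It differed by 0.29 ± 0.06 between IMM and NIMM lines (adjusted p = 0.0617, limma). The remaining 5 were between -0.22 and 0.12 in that comparison.

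Of the 62 other genes listed for semaphorin signalling, the CRMPs' kinases and partners, and the growth cone, 54 were tested, and 0 passed in any comparison by limma. Unadjusted, 5 were under 0.05 between IMM and NIMM lines (9.26%, against 14.1% of all genes), 12 between IMM and GKO-IMM (22.2%, against 17.2%) and 6 between GKO-IMM and NIMM (11.1%, against 13.9%). The lists were chosen with results of these data known. Sema3d, Plxna2, Chl1, Pak1, Dpys, Gap43 and Dcx were under the filter, and Gsk3a had no transcript cluster of its own symbol. Without NIMM 4, 1, 7 and 6 of the listed genes passed, as the count over all genes became 76, 1208 and 1264 in place of 70, 191 and 20.

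Of the class 3 semaphorin ligands, 6 of 7 were tested. Their median difference was -0.0028 between IMM and NIMM lines, -0.06 between IMM and GKO-IMM and 0.03 between GKO-IMM and NIMM, against 0.02, 0.01 and 0.01 over all genes. Sema3f was at 0.20 ± 0.10 between IMM and NIMM lines (adjusted p = 0.38, limma) and Sema3e at -0.13 ± 0.09 (adjusted p = 0.529). Sema3c was at 0.25 ± 0.08 between IMM and GKO-IMM lines (adjusted p = 0.133) and Sema3g at -0.15 ± 0.07 (adjusted p = 0.31).

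Of the receptors and co-receptors, 8 of 10 were tested, with medians of 0.03, 0.07 and -0.02. The neuropilins, which bind class 3 semaphorins, came nearest to the threshold, and in opposite directions. Nrp1 had an intensity of 223, 173 and 179 in IMM lines, against 136, 137 and 142 in GKO-IMM and 180.1, 178 and 151 in NIMM lines, with 195 in the parent. Nrp2 had 745, 908 and 770 in IMM lines, against 996, 1029 and 1140 in GKO-IMM and 801, 857 and 867 in NIMM lines, with 994 in the parent. For both genes the GKO-IMM lines stood apart from all 6 other tumour-derived lines, below them for Nrp1 and above them for Nrp2. The parent's Nrp2 level, 994, was next to that of the lowest GKO-IMM line, 996. Pairwise, groups did not overlap for 25.8% of genes tested between IMM and GKO-IMM and for 19.5% between GKO-IMM and NIMM lines. The share of genes with GKO-IMM lines apart from all 6 others was not computed. These genes were set out by line after their values were seen, so nothing is read from the separation. Between IMM and GKO-IMM lines Nrp1 differed by 0.46 ± 0.10 (adjusted p = 0.0512, limma) and Nrp2 by -0.39 ± 0.08 (adjusted p = 0.0526), and between GKO-IMM and NIMM lines by -0.29 ± 0.10 (adjusted p = 0.242) and 0.33 ± 0.08 (adjusted p = 0.155). Between IMM and NIMM lines Nrp1 was at 0.17 ± 0.10 (adjusted p = 0.459) and L1cam, a neuropilin partner, at -0.15 ± 0.10 (adjusted p = 0.526).

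**Figure D4:**
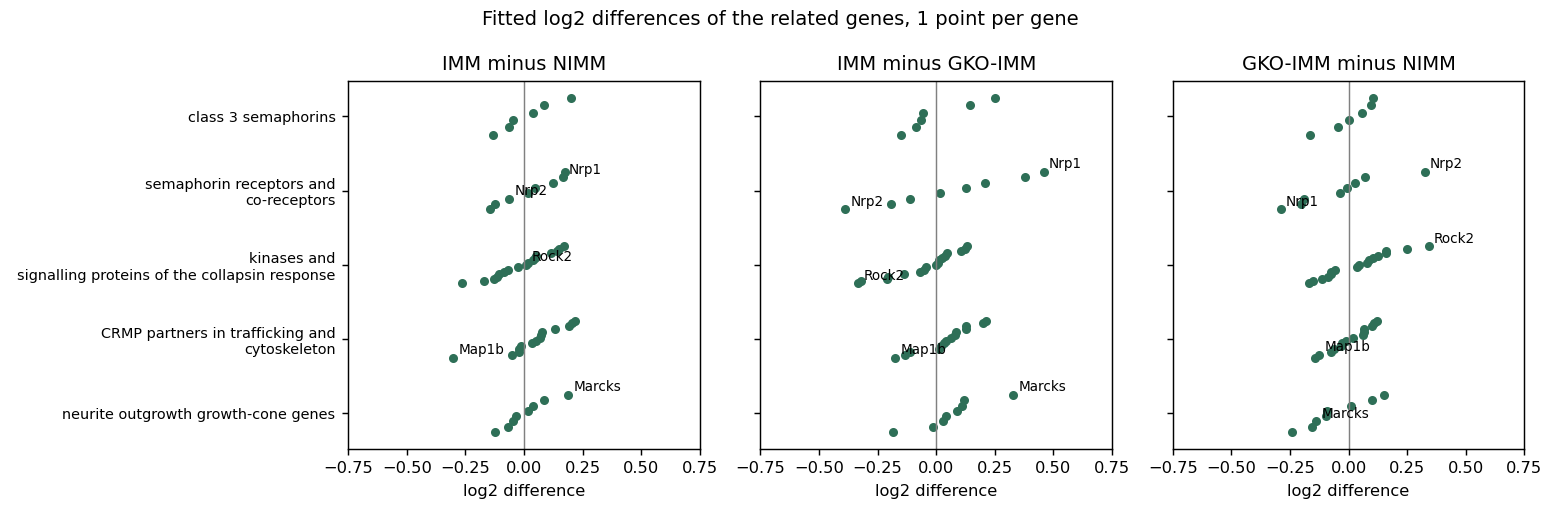
Difference of log2 intensity for the tested genes of each list around the collapsin response, in the 3 pairwise comparisons (3 lines per group), with 1 point per gene. Nrp1 at 0.46 and Nrp2 at -0.39 are the ends of the receptor list for IMM against GKO-IMM.

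Of the kinases and signalling genes, 17 of 19 were tested, with medians of 0.0087, -0.0015 and 0.04. Rock2, a kinase that acts on the cytoskeleton, had 892, 950 and 900 in IMM lines, against 1166, 1136 and 1152 in GKO-IMM and 849, 868 and 1018 in NIMM lines. The GKO-IMM lines were the highest, by 0.34 ± 0.07 over NIMM (adjusted p = 0.106), while IMM and GKO-IMM lines differed by -0.33 ± 0.07 (adjusted p = 0.0548, limma). Cdk5r2, an activator of CDK5, was at -0.21 ± 0.06 between IMM and GKO-IMM lines (adjusted p = 0.122), and Fes, a kinase, at -0.15 ± 0.06 between GKO-IMM and NIMM (adjusted p = 0.308). Between IMM and NIMM lines Rac1, a GTPase that drives actin assembly at the cell edge, was at 0.14 ± 0.07 (adjusted p = 0.356).

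All 14 partners in trafficking and the cytoskeleton were tested, with medians of 0.06, 0.05 and 0.0044. Stmn1, which encodes the tubulin-binding protein stathmin, was at 0.19 ± 0.06 between IMM and NIMM lines (adjusted p = 0.188, limma) and Map1b at -0.30 ± 0.11 (adjusted p = 0.279). Cyfip1 was at -0.13 ± 0.06 between IMM and GKO-IMM lines (adjusted p = 0.248) and at 0.11 ± 0.06 between GKO-IMM and NIMM (adjusted p = 0.402). Of the growth-cone genes, 8 of 10 were tested, with medians of -0.0093, 0.06 and -0.09. Marcks, an actin-binding substrate of protein kinase C, was at 0.33 ± 0.10 between IMM and GKO-IMM lines (adjusted p = 0.118), and Basp1, a related growth-cone protein, at -0.24 ± 0.07 between GKO-IMM and NIMM (adjusted p = 0.188).

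Neuron markers were examined beside Gpm6a, since it is best known from neurons. Their summed intensity was 644 to 735 in IMM, 583 to 649 in GKO-IMM and 547 to 707 in NIMM lines, and 905 in the parent. Of 11 markers 10 were on the array and 7 were tested. Between IMM and NIMM lines 1 passed, against 0.428% of all genes, and the same 1 between IMM lines and the mean of the others, against 0.807%. Rbfox3, which encodes the neuronal splicing factor NeuN, had 61.6, 64.9 and 56.1 in IMM lines, against 51.3, 51.1 and 53.2 in GKO-IMM and 45.7, 46.3 and 42.9 in NIMM lines. It was higher by 0.44 ± 0.07 in IMM than in NIMM lines (adjusted p = 0.0236, limma). The neuron markers were chosen after their values were seen, so nothing is read from this call or from the counts below. The neuron markers Elavl4, Nefl and Nefm were under the filter, with intensities between 18.9 and 24.4 on all arrays. All 7 tested markers were above 0 for IMM against NIMM, where 56.6% of all genes were. For IMM against GKO-IMM 5 of 7 were, against 54.2% of genes. For GKO-IMM against NIMM 6 of 7 were above 0, against 53.9% of genes, while Gpm6a stood at -0.42 there. Elavl3, a neuronal RNA-binding protein gene, had 43.1, 41.3 and 48.04 in IMM lines, against 31.1, 42.5 and 41.7 in GKO-IMM and 29.9, 34.6 and 33.9 in NIMM lines. Its IMM lines were above all NIMM lines and overlapped the GKO-IMM lines, and the difference from NIMM, 0.43 ± 0.11, was close to that of Rbfox3 without passing (adjusted p = 0.159). The synaptic vesicle gene Syp differed by 0.21 ± 0.08 between IMM and NIMM lines (adjusted p = 0.275). Snap25, Syt1, Stmn2 and Tubb3, which made up most of the sum, were at 0.01, 0.09, 0.08 and 0.07 in that comparison. The part of neuronal transcripts in the Gpm6a levels was not tested.

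The 9 tumour-derived lines were set beside the parent's 1 array without a test. All of them were below the parent for Dpysl3, by at least 0.91 log2 units. The parent minus the mean of the lines was 1.23 (2.35-fold), 7 of the genes tested had a larger value, and 0.0673% had a value of 1 or more. All 9 lines were also below the parent for Dpysl2 and Dpysl5, where the parent minus the mean of the lines was 0.22 and 0.17. In all, the parent was above every line for 3 of 7 members, against 12.4% of all genes. On the other cluster of Dpysl3 the parent was inside the range of the lines, as it was for Gpm6a, Gpm6b, Dpysl4 and Crmp1.

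The genes of tubulins, which CRMPs bind, were also lower in the lines. Tubb3 was at an intensity of 287 to 440 in the 9 lines, against 630 in the parent, and Tubb2a at 81.1 to 108, against 151. Tubb2b was at 35.2 to 43.9 in the lines, against 55.5 in the parent, and Tuba1a at 228 to 317, against 360.1. Of the 14 trafficking and cytoskeleton partners, 7 were below the parent in all 9 lines and 2 above it, where the parent was above every line for 12.4% of all genes and below every line for 13.5%. Besides the 4 tubulin genes these 7 were Kif5b, Klc1 and Dctn1, genes of motor proteins and their cargo adaptors, and the 2 were Numb and Vcl. With 1 parent array, a property of the parent line and one of that array cannot be told apart.

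**Figure D5:**
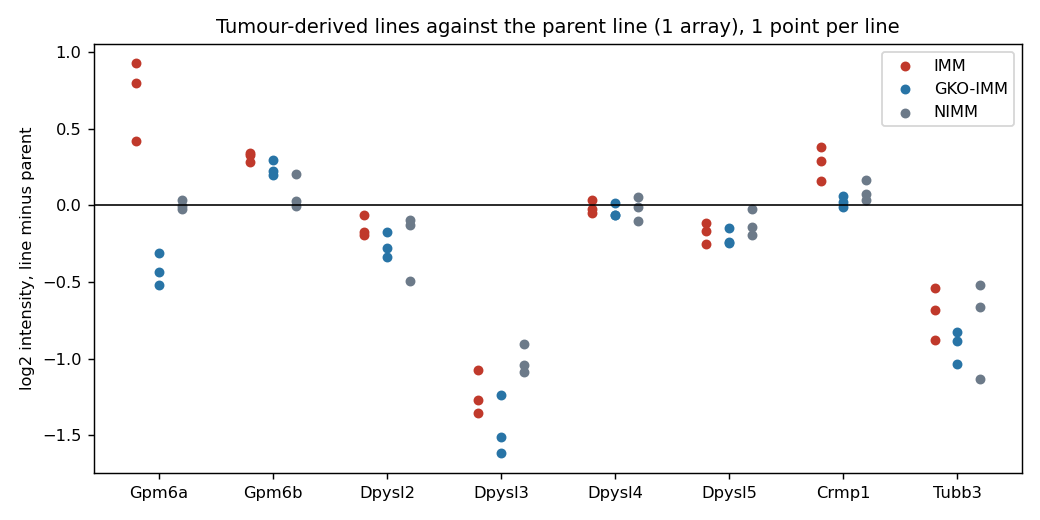
Log2 intensity of each tumour-derived line minus that of the parent (1 array, at 0), for the members and Tubb3, with 1 point per line and colours for IMM, GKO-IMM and NIMM lines. All 9 lines lie below 0 for Dpysl3 and Tubb3, while for Gpm6a the IMM lines lie above 0, the GKO-IMM lines below it and the NIMM lines at it.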

How the data were processed

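Total RNA of 10 lines was measured on 1 array each. Per the file headers, the deposited table holds raw intensity columns and normalized columns for 33793 transcript clusters. The authors' normalized log2 values equal the log2 of the deposited intensity minus each cluster's median over the 10 arrays (largest difference 2.23e-06). How background was corrected and probes summarized is not stated in the labels or headers. The log2 intensities were analysed without further normalization. They were fitted with limma 3.58.1 (lmFit and eBayes) in R 4.3.3, with Benjamini-Hochberg adjustment over 16352 genes and a two-sided threshold of 0.05. All 9 tumour-derived lines entered 1 fit of 3 groups, with 6 residual and 5.25 prior degrees of freedom. The number of arrays limits the precision, and log2 intensities understate differences of dim genes. Older symbols were replaced through a RefSeq table on GRCm38.p6, the source of positions and promoter windows. Tables were made with Python 3.11.15 and pandas 2.3.3.

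The members and lists were chosen with earlier results of these data known. Named genes were the members, the 2 genes of smallest p per list and comparison where none passed, the genes of highest r with each member (5 and the 3 lowest for Gpm6a, otherwise 3), and the 3 nearest tested genes on each side of Gpm6a. Some items that this rule names are not reported here. Genes named against the parent, Nrp1 and Nrp2 by line, and the neuron markers were chosen after their values were seen. Results were recomputed with array weights, with trend and robust priors, after quantile normalization or centring of each array's median, and with the filter dropped or raised to percentile 50. Further alternatives averaged a gene's clusters, fitted just the groups compared, took the line number as a block, added 48 or subtracted 15 before log2, and left out each line. Fitting every transcript cluster on its own was added after seeing the data. The fit was tested on simulated data.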

Additional observations from a re-analysis of the deposited data

How the results depend on the processing

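The count of members called between IMM and NIMM lines was 1 and became 0 with no filter, with only the groups compared, with 48 added before log2 and with every transcript cluster, and ranged from 0 to 1 over the lines left out (0 without IMM 1, IMM 2, GKO-IMM 3, NIMM 1 or NIMM 3). That call is Gpm6a, whose difference stayed between 0.50 and 0.87 throughout. Between IMM and GKO-IMM lines 1 became 2 with array weights, and the count ranged from 1 to 2 over the lines left out (2 without NIMM 4). The member added is Crmp1. Between GKO-IMM and NIMM lines 0 became 2 with array weights and 2 with the line number as a replicate block, and ranged from 0 to 1 over the lines left out (1 without NIMM 4). Dpysl3 was among these in each case. For IMM lines against the mean of the others the count was 1 under all alternatives run. That member is again Gpm6a. Since Gpm6a was chosen by its differences between the groups, nothing is read from how long its calls last. Of all genes, 70, 191, 20 and 132 were called in the 4 comparisons, with ranges of 13 to 167, 30 to 1208, 5 to 1264 and 39 to 304. Of the listed pathway genes, 0 to 1, 0 to 7, 0 to 6 and 0 to 1 passed. The causes were not tested. The labels do not say whether same-numbered lines share more than a number. Their deviations from the group means correlated at -0.135 to 0.12 in 5 pairs, which does not settle it. With the number as a block, 1, 1, 2 and 1 members and 29, 586, 915 and 88 of all genes passed. Gpm6b and Dpysl4 were under the filter at percentile 50 and had no value there. The Gpm6b difference between IMM and NIMM lines ranged from 0.09 to 0.52 over the alternatives. Its dim level, near the filter, and the 3 lines per group limit what can be seen.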
